A study of Mus musculus with 4 samples.

Results

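The Hox genes were examined in 4T1 cells, a murine TNBC line, with and without iron chelation. The members were the protein–coding genes whose symbol is Hoxa, Hoxb, Hoxc or Hoxd followed by a number, which gave 39 of the 49585 genes in the deposited table and 39 of its 21973 protein–coding genes. Values are given for 38 of them, to which the counts below refer. The genes were gathered by symbol, with the fall of Hoxa5 under the chelator already known from these values, so every value here is a description and carries no test. RNA came from a pair of clones, each grown from a single cell, 4T1–HM, of high metastatic capacity, and 4T1–LM, of low. Cells had been grown for 48 h with the iron chelator deferasirox (DFX) at 50 μmol/L, or with DMSO as the vehicle control. The libraries are called HM_Ctrl, HM_DFX, LM_Ctrl and LM_DFX, and there was 1 for each condition, so no difference has a replicate check. Each metastatic class is 1 clone, so clone and metastatic capacity cannot be told apart.

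Hox genes encode homeodomain transcription factors that set the identity of body segments along the head–to–tail axis of the embryo. In mammals they lie in 4 clusters, and genes with the same number in different clusters are paralogs that descend from 1 ancestral gene. Within a cluster, the genes with low numbers are switched on earlier and nearer to the head than those with high numbers. In adult tissues, including the mammary gland, part of this pattern persists, and Polycomb proteins keep the remaining members silent while Trithorax proteins keep active members on.

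Levels are FPKM, in which the read pairs (fragments) of a gene are divided by its length and by the library total, so that genes can be compared with each other. The FPKM of all 38 members moved in whole steps, which allowed the fragments behind them to be counted from totals of between 14363065 and 21883855 fragments per library. The 95% intervals given below are exact intervals on these fragments and cover counting error only. The smallest library was HM_DFX and the deepest was LM_DFX. Log2 ratios are of FPKM + 1, a scale that understates changes of genes with a low level, and 2-fold on it was the threshold for calling a difference. The 12669 genes that reached an FPKM of 1 in any library are called expressed. Groups of 4 values run in the order HM_Ctrl, HM_DFX, LM_Ctrl, LM_DFX unless the libraries are named.

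Hox expression in these cells came from the Hoxa cluster. Of the 38 members, 6 were expressed, and these were Hoxa2, Hoxa3, Hoxa5, Hoxa6, Hoxa7 and Hoxa10. By comparison, 49.0% of all protein–coding genes were expressed. The Hoxa cluster on chromosome 6 of mm10 held between 99.0% and 99.9% of the summed Hox FPKM in the 4 libraries. The Hoxb cluster on chromosome 11 had 0 fragments on all 10 of its members in every library. In the Hoxc cluster on chromosome 15, 7 of 9 members were at 0, and in the Hoxd cluster on chromosome 2, 8 of 9 were. The 3 exceptions were Hoxc4, Hoxc6 and Hoxd4. Hoxc6 had 0, 1, 6 and 5 fragments, and Hoxc4 had 1 fragment in LM_DFX. Hoxd4 had 5, 3, 4 and 6 fragments in the same order, and 52.3% of its exon bases also belong to another gene on the same strand. With Hoxa11, 26 members had no fragment in any library, and 3 fragments, the limit that a count of 0 allows, would give them an FPKM of between 0.0322 and 0.203 depending on library and length.

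**Figure D1:**
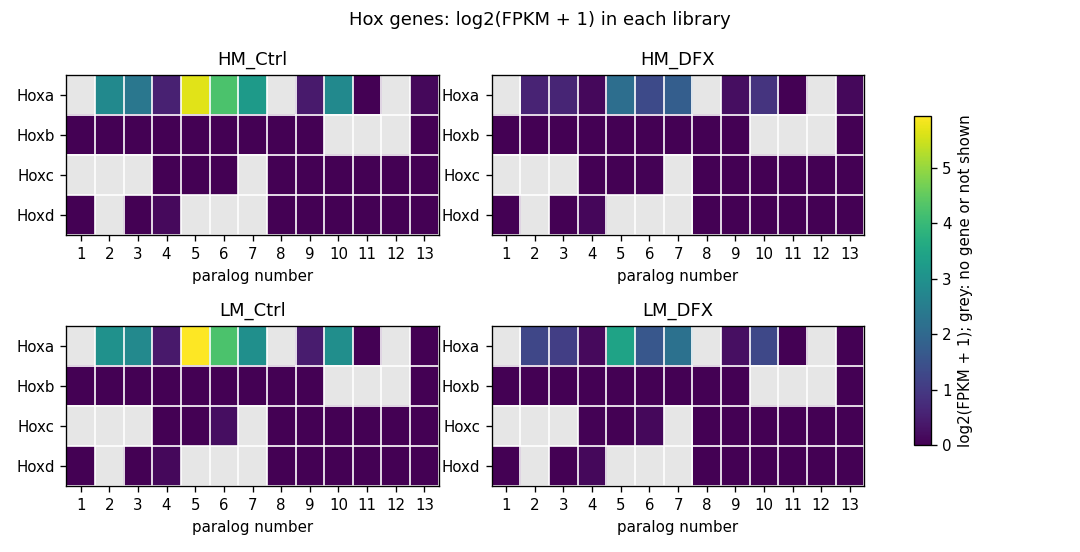
Level of each Hox gene as log2(FPKM + 1) by cluster (rows) and paralog number (columns) in each of the 4 libraries, on 1 colour scale, with grey where the mouse has no gene or none is shown. Colour above the floor appears in the Hoxa row, where 6 of 10 members shown reached an FPKM of 1, and not in the Hoxb row, where all 10 members were at 0.

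Along the Hoxa cluster the level peaked in the middle. Hoxa5 (ENSMUSG00000038253, chromosome 6 from 52201754 to 52204587, minus strand), a regulator of lung and mammary epithelial development, stood at an FPKM of 49.5 in untreated HM cells and 60.1 in untreated LM cells, and at 3.41 and 9.86 with DFX. It was the highest member in every library and alone made up 53.1% of the Hox FPKM in HM_Ctrl and 56.9% in LM_Ctrl. Hoxa6 (ENSMUSG00000043219, chromosome 6 from 52206288 to 52208722), which lies beside it and patterns the trunk skeleton, had an FPKM of 18.1 in both control libraries, of 1.51 in HM_DFX and of 2.04 in LM_DFX. Both control libraries were far above both DFX libraries for these neighbours. Hoxa7 (ENSMUSG00000038236, chromosome 6 from 52214491 to 52221854), another trunk patterning gene, stood at 8.43, 2.45, 6.81 and 3.67, again with both controls on top but a narrower gap.

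The members with low numbers were below Hoxa5 and Hoxa6. For Hoxa2 (ENSMUSG00000014704, chromosome 6 from 52162417 to 52164831), which patterns the second pharyngeal arch, the FPKM values were 6.09, 0.510, 7.02 and 1.42. Hoxa3 (ENSMUSG00000079560, chromosome 6 from 52169062 to 52213336), needed for the thymus and parathyroid, stood at 4.12, 0.521, 5.92 and 1.15. In both of these genes the control libraries of both clones were above both DFX libraries. Hoxa4, which lies within the span of Hoxa3, stood lower, with control levels of 0.450 in HM and 0.319 in LM, from 12 and 8 fragments, and was not expressed by the definition used here.

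On the high–numbered side, expression broke off after Hoxa7 and returned at a single gene. Hoxa9, a regulator of blood stem cells, reached control levels of 0.342 in HM and 0.376 in LM, from 32 and 33 fragments. Its neighbour Hoxa10 (ENSMUSG00000000938, chromosome 6 from 52231197 to 52240854), which patterns the uterus, had FPKM values of 6.04, 0.852, 6.69 and 1.43. Hoxa11 had no fragment, and Hoxa13 had 4 and 3 fragments in the HM libraries and 0 in both LM libraries. Grouped by position in HM_Ctrl, the Hoxa members numbered 2 to 4 held 11.4% of the Hox FPKM, those numbered 5 to 8 held 81.5% and those numbered 9 to 13 held 6.95%. In LM_Ctrl the corresponding shares were 12.6%, 80.5% and 6.69%.

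**Figure D2:**
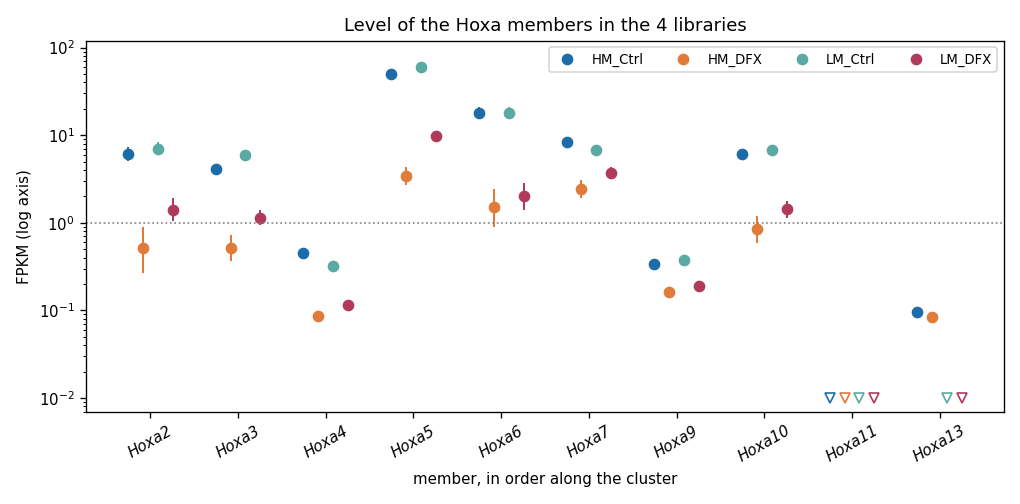
FPKM on a log axis of 10 Hoxa members in order along the cluster, with 1 point per library, 95% counting intervals for the 6 expressed members and open triangles at the bottom for values of 0. Hoxa5 is highest in every library, Hoxa4 and Hoxa9 form dips below the dotted line at an FPKM of 1, and in the 6 expressed members both control points lie above both DFX points. How many of all expressed genes have this order of libraries is not given here.

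The order of the levels was only partly resolved by the depth. In HM_Ctrl the order was Hoxa5, Hoxa6, Hoxa7, Hoxa2, Hoxa10 and Hoxa3, and the counting intervals of neighbours overlapped between Hoxa2 and Hoxa10. LM_Ctrl differed from this order in the place of Hoxa2, which came before Hoxa7, and the intervals of neighbours from Hoxa2 through Hoxa7 and Hoxa10 to Hoxa3 overlapped. With DFX, Hoxa7 followed Hoxa5 in both clones and Hoxa6 came after it. All neighbours in HM_DFX had overlapping intervals, whereas in LM_DFX Hoxa5 and Hoxa7 stood apart from the gene after them. The highest expressed member was 12.0 times the lowest in HM_Ctrl and 10.2 times in LM_Ctrl, against 6.69 times in HM_DFX and 8.59 times in LM_DFX.

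The untreated clones were compared to ask whether the Hox pattern differs with metastatic capacity. Between HM_Ctrl and LM_Ctrl, 0 of the 6 expressed members were at least 2-fold higher and 0 were at least 2-fold lower, where 3.65% of all expressed genes were higher and 3.15% lower. The log2 ratios ran from −0.43 for Hoxa3 to 0.27 for Hoxa7, with a median of −0.15 beside a median of 0.01 over all expressed genes. Hoxa6 had nearly the same level in both clones, a ratio of 1.00 with a counting interval of 0.838 to 1.19. Hoxa3 was lower in HM_Ctrl beyond counting error, at 0.696 of its level in LM_Ctrl (0.612 to 0.792), as was Hoxa5 at 0.824 (0.769 to 0.882). Hoxa7 was the member above 1, with a ratio of 1.24 (1.07 to 1.44). For Hoxa2 and Hoxa10 the interval of the ratio included 1. How far such ratios vary between cultures of 1 clone cannot be read from single libraries.

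DFX was added to ask how iron chelation changes each clone. In HM all 6 expressed members fell by 2-fold or more with DFX, where 12.4% of all expressed genes were lower, and 0 were higher, where 6.93% were. Together the Hoxa members fell from a summed FPKM of 93.2 to 9.59, which left 10.3% of the control level. The median log2 ratio of the 6 members was −2.08, while the median over all expressed genes was −0.10 and the quartiles were −0.61 and 0.35. The largest fall was in Hoxa5, from 1557 to 92 fragments, a level 14.5-fold lower (counting interval 11.8 to 18.1) and a log2 ratio of −3.52. Of the 12669 expressed genes, 5 had a more negative ratio than Hoxa5. Hoxa6 was 12.0-fold lower (7.51 to 20.2) with 19 fragments left, and Hoxa2 was 11.9-fold lower (6.81 to 22.9) with 13 left. These 3 genes are not a single block, since Hoxa3 lies among them with a fall of 7.91-fold (5.81 to 11.0). Hoxa10 was 7.10-fold lower (5.10 to 10.1). The smallest fall was in Hoxa7, 3.45-fold (2.77 to 4.33), from 406 to 101 fragments. Bulk RNA cannot tell fewer cells that express a gene from less of its RNA per cell.

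In LM_DFX, 5 of the 6 expressed members were at least 2-fold lower than in LM_Ctrl, where 8.72% of all expressed genes were lower, and 0 were higher, where 7.09% were. The summed Hoxa FPKM fell from 105 to 19.9, which left 18.8%. The median log2 ratio of the members was −1.71, beside −0.04 over all expressed genes. Hoxa6 had the largest fold here, 8.88-fold lower (6.32 to 12.8), and a log2 ratio of −2.65. Hoxa5 followed at 6.10-fold lower (5.47 to 6.81), from 1776 to 405 fragments. Hoxa3 at 5.16-fold, Hoxa2 at 4.96-fold and Hoxa10 at 4.69-fold lower lay close together. The member that did not reach the threshold was Hoxa7, with a log2 ratio of −0.74 and a level 1.85-fold below LM_Ctrl (1.56 to 2.21). The 5 members that were called in this clone were also called in HM, and 5.32% of all expressed genes were called lower in both clones.

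**Figure D3:**
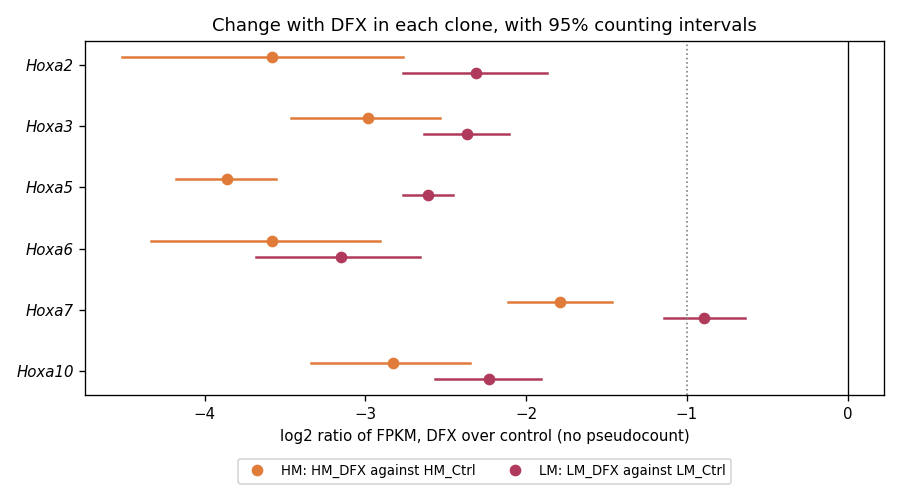
Log2 ratio of FPKM without a pseudocount, DFX over control, for the 6 expressed Hoxa members in HM (HM_DFX against HM_Ctrl) and LM (LM_DFX against LM_Ctrl), with 95% counting intervals and a dotted line at a 2-fold fall. All 12 points lie below 0, the HM point is left of the LM point for each gene, and the 95% intervals of Hoxa5 and Hoxa7 do not overlap between the clones. These intervals cover counting error only, and the share of all expressed genes without overlap is not given here.

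The weakly expressed Hoxa members also had fewer fragments with DFX. Hoxa9 went from 32 to 13 fragments in HM and from 33 to 23 in LM, which left 47.4% and 50.1% of its control FPKM with counting intervals below 1 for both ratios. Hoxa4 had 12 fragments without and 2 with DFX in HM, and 8 and 4 in LM, where the interval of the ratio included 1. These are the genes in the dips of the profile, and neither reached the level at which calls were made.

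**Figure D4:**
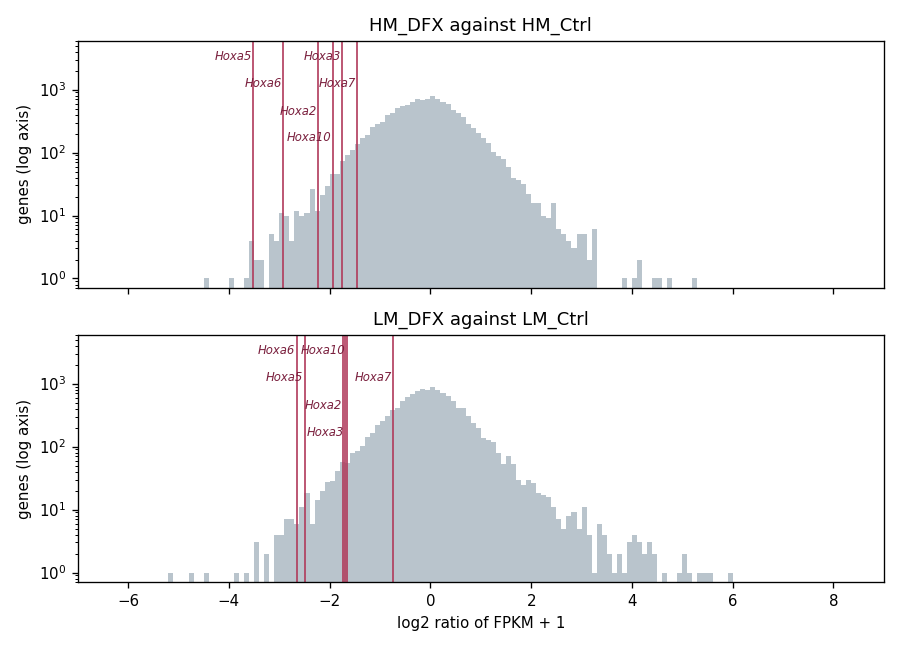
Distribution of the log2 ratio of FPKM + 1 over the 12669 expressed genes (bars, log axis) for DFX against control in HM (top) and LM (bottom), with lines for the 6 expressed Hoxa members. All 6 lines lie at or below −1.45 in HM, and in LM they run from −2.65 for Hoxa6 to −0.74 for Hoxa7.

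The response to DFX was then set side by side between the clones, with no library in common. The log2 ratio was more negative in HM than in LM for 6 of the 6 expressed members, and 56.5% of all expressed genes had a more negative ratio in HM. The gap between the responses, HM minus LM, had a median of −0.39 over the members and of −0.08 over all expressed genes. In Hoxa3 it was −0.06, less negative than the median of all expressed genes. The gap reached −1 in Hoxa5 (−1.02), as in 5.38% of all expressed genes. On the scale without a pseudocount the gap was −1.25 ± 0.17 (SE from counting) for Hoxa5, −1.27 ± 0.47 for Hoxa2 and −0.89 ± 0.20 for Hoxa7. The 95% counting intervals of the gap lay below 0 for 5 members, those 3 with Hoxa3 and Hoxa10, and included 0 for Hoxa6, where the interval ran from −1.26 to 0.40. The share of all expressed genes with such an interval is not given here, so the count does not set these members apart. The gap is a comparison of 4 libraries, and a difference between the clones in response was not tested.

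The levels under DFX were lower in HM than in LM. The same DFX libraries enter the gap above, so this is not a separate observation. In HM_DFX against LM_DFX, 1 of the 6 expressed members, Hoxa5, was at least 2-fold lower (log2 ratio −1.30), where 5.05% of all expressed genes were lower, and 0 were higher, where 3.31% were. The remaining 5 had log2 ratios between −0.68 for Hoxa2 and −0.27 for Hoxa6. Since low levels are damped on this scale, the ratios of FPKM are also given. Hoxa5 was 2.89-fold lower in HM_DFX (2.30 to 3.66), Hoxa2 stood at 0.360 of its level in LM_DFX (0.180 to 0.668) and Hoxa3 at 0.454 (0.318 to 0.637). For Hoxa6 the counting interval of the ratio included 1. HM_DFX held an FPKM of 1 or more for 3 members, Hoxa5, Hoxa6 and Hoxa7, and LM_DFX for all 6. The members below 1 in HM_DFX were near this cut-off in LM_DFX, at 1.15 for Hoxa3, 1.42 for Hoxa2 and 1.43 for Hoxa10. How many of all expressed genes reached 1 in each library is not given here.

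Position within the cluster did not order the falls from 1 end to the other. The summed FPKM that remained in HM_DFX was 10.5% for the Hoxa members numbered 2 to 4, 9.69% for those numbered 5 to 8 and 16.9% for those numbered 9 to 13. In LM_DFX the corresponding values were 20.2%, 18.3% and 22.8%. The middle value rests on Hoxa5 and Hoxa6, since their neighbour Hoxa7 kept 29.0% in HM and 53.9% in LM, the most of the 6 members in both clones. Without Hoxa5, the cluster kept 14.1% in HM and 22.1% in LM, and without Hoxa5 and Hoxa6 it kept 18.2% and 29.3%. Adjacent genes could differ more than genes far apart. In HM, Hoxa6 kept 8.36% beside the 29.0% of Hoxa7, while Hoxa2 kept 8.37% and Hoxa10 14.1%.

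Most other expressed genes inside the Hoxa cluster were lower with DFX too. Of 20 other annotated genes within the span of the cluster, 5 were expressed, and 4 of these were at least 2-fold lower in HM_DFX, where 12.4% of all expressed genes were, and 3 in LM_DFX, where 8.72% were. The 5 are not all separate, since Gm27861 lies within the span of Hotairm1. Hotairm1, a noncoding RNA on the strand opposite to the members, had FPKM values of 13.2, 3.74, 20.9 and 5.71. Its log2 ratio was −1.59 in HM and −1.71 in LM. The others called in HM rest on few fragments, Gm27861 with 18 without and 4 with DFX, Gm27477 with 12 and 1, and Gm15050 with 20 and 4. In LM these had 38 and 4, 16 and 11, and 23 and 21. Hoxaas2, opposite to Hoxa3, was not called in HM (log2 ratio −0.94) but was in LM (−1.77). It went from 61 to 4 fragments in HM and from 149 to 9 in LM. Whether strand was used in counting is not given in the sources used here, so reads of a member and of its antisense partner may not be separate. This touches Hoxa3, with 25.4% of its exon bases opposite to another gene, and Hoxa7 with 20.4%, but not Hoxa5, Hoxa6 and Hoxa10, which share 0% with any other gene on either strand.

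Of the 6 nearest protein–coding genes around the cluster, 5 were expressed. Of these, 0 were at least 2-fold lower in HM_DFX, where 12.4% of all expressed genes were, and 1 in LM_DFX, where 8.72% were. That gene was Cbx3, 672 kb from the low–numbered end, with log2 ratios of −0.84 in HM and −1.19 in LM. Skap2, an adaptor protein gene 143 kb from the same end, had FPKM values of 6.71, 3.23, 8.02 and 4.72. Its log2 ratios were −0.87 in HM and −0.66 in LM, and 48.2% and 58.8% of its control FPKM remained. Hibadh, a mitochondrial enzyme gene of valine breakdown 285 kb from the other end, had values of 4.02, 3.99, 4.08 and 5.34. Evx1, the nearest gene beyond Hoxa13 and a homeobox gene itself, had no fragment. Outside the Hoxa cluster, 1 gene within the span of a Hox cluster was expressed, the antisense RNA Hoxd3os1, with 18, 3, 49 and 9 fragments.

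**Figure D5:**
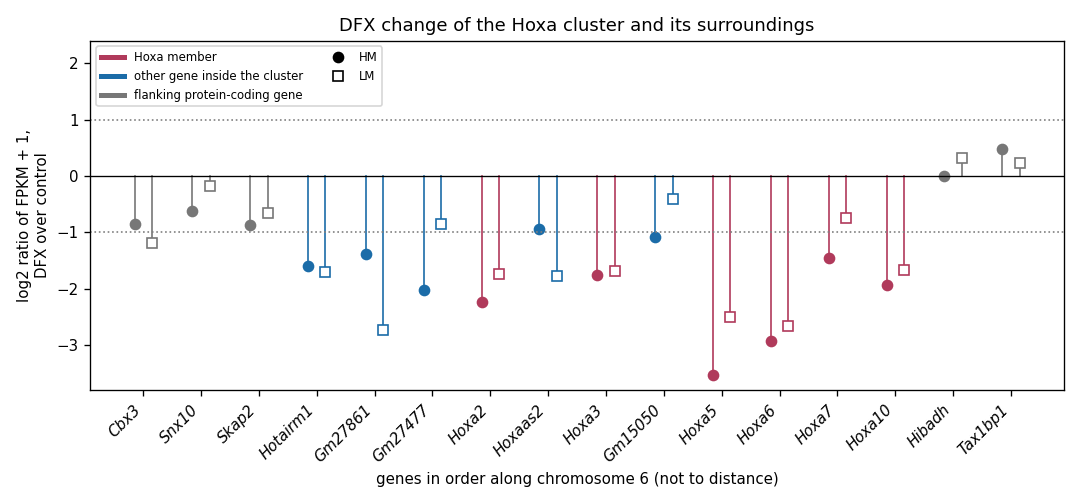
Log2 ratio of FPKM + 1, DFX over control, in HM (filled circles) and LM (open squares) for the expressed Hoxa members, the 5 other expressed genes inside the cluster and the 5 expressed flanking protein–coding genes, in order along the chromosome and not to distance. Values for the genes inside the cluster lie between −0.41 and −3.52, and the flanking genes on the low–numbered side lie between −0.17 and −1.19, with those on the Hoxa13 side between −0.01 and 0.48.

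The regulators and partners of Hox proteins were read from lists written from general knowledge. The TALE homeodomain proteins, which bind DNA together with Hox proteins, had 6 of 8 genes expressed, and 0 were past 2-fold in either clone with DFX. Among all expressed genes, 12.4% were lower and 6.93% higher in HM_DFX, and 8.72% and 7.09% in LM_DFX. The median log2 ratio of the 6 TALE genes was −0.16 in HM and −0.01 in LM. Meis1, a cofactor of Hoxa9 in blood cells, was at FPKM values of 1.41, 1.29, 1.15 and 2.12, with log2 ratios of −0.08 in HM and 0.54 in LM.

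Polycomb genes did not move as a group. All 30 were expressed. In HM_DFX 4 were at least 2-fold lower and 0 higher, where 12.4% and 6.93% of all expressed genes were. In LM_DFX 1 was lower and 1 higher, where 8.72% and 7.09% were. The group's median log2 ratio was −0.07 in HM and −0.04 in LM, close to those of all expressed genes (−0.10 and −0.04). Ezh2, the methyltransferase that writes the Polycomb mark H3K27me3, had FPKM values of 12.0, 12.2, 13.7 and 12.3. Cbx6 and Cbx7, readers of this mark, had log2 ratios of −1.68 and −1.54 in HM and of −1.26 and −0.76 in LM. Phc2, a scaffold subunit, was at −1.49 in HM and −0.45 in LM. Pcgf5, a subunit of a variant Polycomb complex, had 0.54 in HM and 1.33 in LM.

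Among 19 Trithorax and associated genes, 1 was at least 2-fold higher in each clone, where 6.93% of all expressed genes were in HM and 7.09% in LM. In this list 0 were lower, where 12.4% and 8.72% were. Its median log2 ratio was 0.41 in HM and 0.22 in LM, beside −0.10 and −0.04 over all expressed genes. The higher gene in both was Dot1l, the H3K79 methyltransferase, with an FPKM of 11.3 without and 51.7 with DFX in HM. Its log2 ratio was 2.10 in HM and 1.24 in LM. Kmt2a, which methylates H3K4 at Hox genes, had log2 ratios of 0.52 in HM and 0.58 in LM. The H3K27 demethylases Kdm6a and Kdm6b, which remove the Polycomb mark and use iron as a cofactor, stood apart from each other. Kdm6b had FPKM values of 12.5, 55.1, 7.83 and 34.4, a log2 ratio of 2.05 in HM and 2.00 in LM. Kdm6a had ratios of 0.57 and 0.37.

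Retinoic acid is an inducer of Hoxa genes in the embryo, and its pathway was read with the Cdx factors that act on Hox clusters. Of 18 genes, 8 were expressed. In HM_DFX 3 of these were at least 2-fold higher and 1 lower, where 6.93% and 12.4% of all expressed genes were. In LM_DFX 1 was higher and 0 lower, where 7.09% and 8.72% were. The higher ones were the retinoic acid–degrading enzymes Cyp26a1, Cyp26b1 and Cyp26c1, which were close to silent without DFX. In HM those at least 2-fold up were all 3, and in LM it was Cyp26a1. Cyp26a1 had 1, 51, 3 and 79 fragments, and its FPKM with DFX was 1.81 in HM and 1.83 in LM. Cyp26b1 had 13, 143, 6 and 50 fragments, and Cyp26c1 had 1, 27, 2 and 41. The gene at least 2-fold lower was Rarg, a retinoic acid receptor, at FPKM values of 23.4, 10.7, 20.9 and 19.8.

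The cells carried the markers of an epithelial line, and these moved with DFX too. Of 8 epithelial markers, 7 were expressed, and their summed FPKM was 1712, 591, 2210 and 1136. In HM_DFX 5 of these were at least 2-fold lower, led by the keratin Krt8 (log2 ratio −2.14), where 12.4% of all expressed genes were. In LM_DFX 1 was lower, Krt8 again, where 8.72% of all expressed genes were, and 1 was higher, the keratin Krt19, from an FPKM of 46.4 to 103 (log2 ratio 1.14), where 7.09% were. Krt8 had FPKM values of 593, 134, 963 and 339. Of 7 fibroblast markers, 1 was expressed, Pdgfra, the summed FPKM of the list ran from 3.51 to 5.64, and Lum and Pdgfrb were at 0 in all libraries. Of 5 leukocyte markers, 1 was expressed, the lysosomal gene Cd68, which had FPKM values of 12.9, 37.4, 12.3 and 83.1, while Cd3e and Adgre1 were at 0 and Ptprc had at most 4 fragments. Endothelial markers summed to an FPKM of at most 0.203. The part of the epithelial change in the Hoxa values was not tested. Of the receptors that define TNBC by their absence, Pgr was at 0 and Esr1 was below an FPKM of 0.53, and Erbb2 stood at 12.5 and 11.8 in the untreated HM and LM cells.

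Sequence upstream of the start was searched, because the expressed members moved together, for ACGTG and GCGTG. These are core motifs of the hypoxia–inducible factor HIF, which iron chelators are known to stabilise in cultured cells. RefSeq promoter windows of build GRCm38.p6 matched 22 of the 38 members and 9 of the 10 in the Hoxa cluster. In the 250 bases before the start, either motif on either strand occurred in 5 of 10 Hoxa windows (Hoxa10 has 2), beside 38.6% of 32851 windows of all genes. Over the 24 Hox windows of all clusters the share was 41.7%. The 5 are windows of Hoxa2, Hoxa3, Hoxa5, Hoxa10 and Hoxa11, of which Hoxa11 had no fragment in any library. All 250 bases of the Hoxa3 window lie in annotated exons, those of its own gene among them. Part of the Hoxa11 window overlaps exons of other genes. The other Hoxa10 window, chr6:52240855-52241104 at the start of the annotated gene, held neither motif. The windows of Hoxa6, among the largest falls, and Hoxa7, with the smallest, held neither motif, and both of these windows overlap an annotated exon of their gene. The windows of Hoxa5, Hoxa2 and Hoxa10 are shown because they carry a motif, overlap no annotated exon and belong to members with a fall of over 7-fold in HM. They are on the minus strand, 5′ to 3′, with the motif in capitals on whichever strand it lies, and span chr6:52204588-52204837 for Hoxa5, chr6:52164832-52165081 for Hoxa2 and chr6:52234940-52235189 for Hoxa10.
Hoxa5: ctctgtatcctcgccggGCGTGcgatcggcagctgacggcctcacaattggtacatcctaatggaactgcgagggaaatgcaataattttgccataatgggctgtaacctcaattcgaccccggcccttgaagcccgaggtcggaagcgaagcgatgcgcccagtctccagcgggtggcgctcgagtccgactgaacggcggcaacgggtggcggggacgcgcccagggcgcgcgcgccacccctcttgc
Hoxa2: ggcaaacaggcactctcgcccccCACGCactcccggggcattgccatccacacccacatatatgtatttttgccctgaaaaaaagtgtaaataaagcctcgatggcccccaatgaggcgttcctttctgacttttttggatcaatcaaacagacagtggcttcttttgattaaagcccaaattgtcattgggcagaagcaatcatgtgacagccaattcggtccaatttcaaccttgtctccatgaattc
Hoxa10: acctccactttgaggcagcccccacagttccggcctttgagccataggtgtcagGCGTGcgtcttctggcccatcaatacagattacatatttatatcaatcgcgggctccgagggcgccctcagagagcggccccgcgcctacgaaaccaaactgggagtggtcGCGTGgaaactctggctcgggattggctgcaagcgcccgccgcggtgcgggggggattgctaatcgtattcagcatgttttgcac
Each match is of GCGTG, which 28.2% of all windows hold, and a match is a description of letters and not a site of binding. The median ratio of observed to expected CpG was 0.739 over the Hoxa windows and 0.373 over all windows.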

How the data were processed

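Total RNA of 4 cultures was sequenced as directional poly(A) libraries. The authors trimmed paired–end reads with Trimmomatic, aligned them to mm10 with HISAT2 and deposited FPKM per gene. The submitters' processing notes also name FastQC and featureCounts. Tool versions and the use of strand are not given in the sources used here. Fragments were recovered from the FPKM with exon lengths of GENCODE release M21. Within 0.02 of a whole number in all 4 libraries were 80.4% of expressed genes and all 38 Hox members given. 1 Hox member and 2 genes of the lists are not reported here.

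Log2 ratios of FPKM + 1 were computed with pandas 2.3.3 over genes that reached an FPKM of 1 in any library, and 2-fold was called. The edgeR test of the paper needs replicates and was not run. Intervals are exact (Clopper–Pearson or Poisson, 95%), except that the gap between clones uses a normal approximation. Members, lists and tests were chosen with earlier results of these data known. Every other Hox member was accounted for, with values for those at an FPKM of at least 1. From each list up to 4 genes past 2-fold with DFX in either clone were named, plus Meis1, Ezh2, Kmt2a, Kdm6a and Kdm6b. The genes named inside and around the clusters, and the markers named, were picked after their values were seen. Of the 31-mers of the 6 expressed members, at most 2.73% occur in a gene elsewhere. The calling was checked on simulated data.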

Additional observations from a re-analysis of the deposited data

Results flagged for a closer look

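A pair of weakly expressed Hox genes had opposite directions with DFX in the clones, and the difference was not tested. Hoxc6 had a log2 ratio (FPKM + 1) of 0.04 in HM and −0.08 in LM, a gap of 0.122 from at most 6 fragments in a library. Hoxd4 had a gap of −0.0494, also from at most 6 fragments. Among other genes named here, directions were opposite for Ezh2 (gap 0.169), Hibadh (−0.327) and Meis1 (−0.614), each HM minus LM and not tested.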

How the results depend on the processing

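No paired analysis was possible because each condition has 1 library. Counts of members past the threshold or expressed were within 1.5 times the given ones in 51 cases under other settings. Many of the 51 were counts of 0 that stayed at 0, as for members higher in any comparison, and say little about the settings. Outside that range were these 5. At a 4-fold threshold 3 members were lower in HM_DFX than in HM_Ctrl, where 1.31% of all genes were, and 2 in LM_DFX than in LM_Ctrl, where 1.06% were. For HM_DFX against LM_DFX the count of lower members was 3 with a pseudocount of 0.1, where 9.34% of all genes were lower. It was 2 at a 1.5-fold threshold, where 14.6% were, and 0 at a 4-fold threshold, where 0.466% were. Scaling by median ratios moved the median of all expressed genes in HM_DFX against HM_Ctrl from −0.10 to 0.00, and the genes past 2-fold from 1568 lower and 878 higher to 1276 lower and 1118 higher. The median of the 6 members was then −1.99. A pseudocount of 0.1 made the falls of all 6 members larger in both clones, most in Hoxa2, Hoxa3 and Hoxa10. It changed no direction in any named member. In HM_DFX against LM_DFX it brought Hoxa2 (log2 ratio −0.68 to −1.31) and Hoxa3 (−0.50 to −1.01) past 2-fold. Depth limits the values in HM_DFX most, where Hoxa2 rests on 13 fragments.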
